A study of Bos taurus with 111 samples.

Results

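Skeletal muscle of Charolais (CH) steers was compared between the end of a phase on zero-grazed grass (ZG) and the end of the finishing phase on a high-concentrate diet (H2). The members were the CH libraries labelled ZG or H2 with at least 1000000 gene counts, without the ZG library of steer 571. The rule left 31 of the 111 libraries of the series, from 26 steers, of the 35 CH libraries deposited for the 2 diets. The 17 ZG libraries held 9 steers of low residual feed intake (L-RFI) and 8 of high residual feed intake (H-RFI), and the 14 H2 libraries held 7 of each class. Residual feed intake is the feed an animal eats beyond what its weight and growth predict, so L-RFI steers are the efficient ones. A total of 5 steers had a library in both phases.

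Feed intake of CH and Holstein-Friesian (HF) steers was measured over feeding phases of 70 d on concentrate (H1), grass (ZG) and concentrate again (H2), with biopsies of the M. longissimus thoracis et lumborum. The CH steers were on average 283 d old and weighed 395 kg when the first phase began. They weighed 519 kg at the start of the grass phase and 675 kg at the start of the finishing phase. The HF steers were on average 306 d old and weighed 294 kg when the first phase began. Their weights at the start of the grass and finishing phases were 441 and 611 kg. These ages and weights, and the dry matter of the grass, are those of the sample labels, from which the study's methods text differs slightly. In H2 the steers had free access to a concentrate that was mostly rolled barley (860 g/kg), and a small ration of grass silage. In ZG they were fed freshly cut perennial ryegrass of 196 g/kg dry matter. Every H2 biopsy was taken later, from older and heavier animals, than the ZG biopsies, so diet cannot be told apart from age, body weight, season or day of sampling in any value given here. RFI class was assigned anew in each phase, and 2 of the 5 steers sampled in both phases changed class.

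Immediate-early genes are the first to be transcribed when a cell receives a stimulus, and their RNAs appear within minutes and decay fast. In muscle they answer to contraction, adrenaline, growth factors and handling of the tissue. Many encode transcription factors, such as the FOS and JUN proteins that pair to form AP-1 and the NR4A nuclear receptors, and others encode proteins that degrade short-lived RNAs. A separate set of muscle genes follows the fuel supply. PDK4, the kinase that shuts off pyruvate dehydrogenase, is known to be high when muscle burns fatty acids and low when carbohydrate and insulin are plentiful, and THRSP, FASN and ELOVL6 belong to fat synthesis, which in marbling muscle takes place in adipocytes lying between the fibres.

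Gene counts per library ranged from 4534891 to 33640376 in ZG, with a median of 18766546, and from 2201765 to 32101658 in H2, with a median of 12756385. The difference in mean log10 gene counts, H2 minus ZG, was -0.13 and did not pass a two-sided permutation test (p = 0.173). Levels are given in CPM, the number of counts of a gene per 1000000 counts of its library after TMM scaling. A count of 3 in the shallowest library equals 1.36 CPM before that scaling, so the lowest levels below rest on very few reads. Genes that mark liver were present in every library, and the 11 such genes that could be matched summed to between 32.4 and 747 CPM in ZG and between 39.4 and 640 CPM in H2. In the left-out ZG library of steer 571, the liver gene ALB alone reached 101449 CPM before scaling. None of the 12 defining muscle fibre markers could be matched by name, but the cardiac and slow muscle gene MYH6 was read in all 31 libraries, at 122 CPM or more. No 2 libraries held identical counts.

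Of 9885 genes tested, 62 were lower and 4 were higher in H2 than in ZG (limma voom with the steer as a block, Benjamini-Hochberg adjusted p under 0.1 and fold change above 1.5). The lower genes made up 0.627% of those tested and the higher genes 0.0405%. Without the fold limit, 69 genes were lower and 10 higher. The lower genes differed by between 1.501 and 23.2 times, with a median of 2.19 times, while the log2 fold change over all genes tested had a median of -0.0096. A gene symbol was known for 105 of the tested genes and for 18 of the 62 lower ones. Those symbols come from the lists of genes the study itself called on these animals, so the share of named genes among the called ones, 17.1% of 105, is not independent evidence. None of the 4 higher genes had a symbol.

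**Figure D1:**
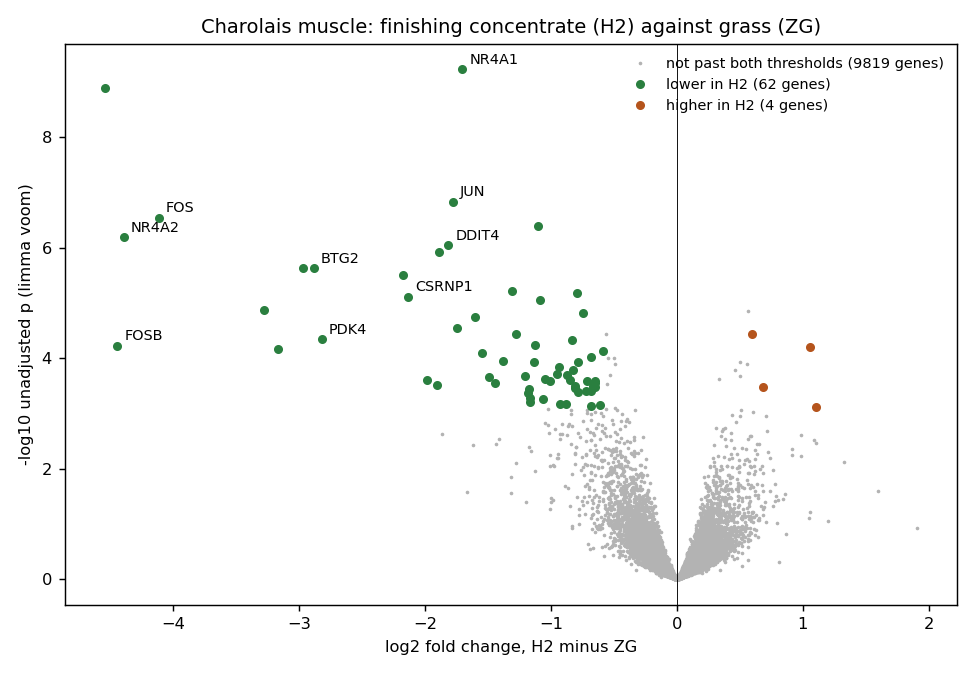
Each point is 1 of the 9885 genes tested, with the log2 fold change (H2 minus ZG) on the horizontal axis and minus log10 of the unadjusted limma voom p on the vertical axis. The 62 genes that were lower in H2 (green) reach log2 fold changes of -4.54, and the 4 higher genes (orange) lie at 1.10 or less.

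The nuclear receptor genes NR4A1, NR4A2 and NR4A3, which encode transcription factors that act without a known hormone, were all lower in H2. NR4A1 had the smallest p of all genes. It ranged from 172 to 739 CPM in ZG, with a median of 321, and from 54.9 to 188 CPM in H2, with a median of 96.9. The groups barely overlapped, with 15 of 17 ZG libraries above the highest H2 library and 13 of 14 H2 libraries below the lowest ZG library. The fold was 3.26 (log2 fold change -1.71 ± 0.20 SE, limma adjusted p = 5.93e-06). When the liver-rich library of steer 571 was put back, the log2 fold change of NR4A1 was -1.27 and the limma adjusted p 0.595. Over all 22 alternatives, which include edgeR and DESeq2 fits, the adjusted p ran from 2.89e-13 to 0.9998.

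NR4A2 was scarce in finishing muscle, at a median of 0.667 CPM in H2 (range 0.230 to 9.95) against 18.5 CPM in ZG (range 0.384 to 79.6). Every H2 library was below the ZG median, and steer 1316 had the highest H2 value. The difference was 20.97 times (log2 fold change -4.39 ± 0.71 SE, limma adjusted p = 0.00106). NR4A3 followed with 0.384 to 36.9 CPM in ZG, a median of 3.42, and 0 to 3.15 CPM in H2, a median of 0.397, with no read at all in 3 H2 libraries. Its fitted log2 fold change was -3.17 ± 0.69 SE (limma adjusted p = 0.0233).

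Genes of AP-1, the transcription factor formed by FOS and JUN proteins, differed in how widely they varied within grass-fed steers, from 8.18 times between the lowest and highest ZG library for JUN to 683 times for FOSB. FOS ranged from 8.05 to 1019 CPM in ZG, with a median of 179, and from 1.54 to 68.2 CPM in H2, with a median of 7.63. All 14 H2 libraries were below the ZG median, but 4 ZG libraries, with those of steers 1843 and 1100 the lowest, lay within the H2 range. FOS was thus 17.3 times lower in the fit (log2 fold change -4.11 ± 0.64 SE, limma adjusted p = 0.000713). FOSB had a median of 25.6 CPM in ZG (0.563 to 384) and of 0.983 CPM in H2 (0.168 to 3.02). The highest H2 value of FOSB was exceeded by 14 of the 17 ZG libraries (log2 fold change -4.44 ± 0.96 SE, limma adjusted p = 0.0217). The adjusted p was 0.119 with the ZG library of steer 571 put back and ran from 1.37e-15 to 0.9998 over the alternatives, and in steer 1100 FOSB went up, from 0.563 CPM in ZG to 0.870 CPM in H2. JUN, the partner of the FOS proteins, fell from a ZG median of 152 CPM (58.2 to 476) to an H2 median of 51.7 CPM (20.3 to 94.3). That difference was 3.43 times (log2 fold change -1.78 ± 0.27 SE, limma adjusted p = 0.000486). FOSL2, another FOS family member, stood at 1.52 to 13.3 CPM in ZG and 0.768 to 2.85 CPM in H2 (log2 fold change -1.27 ± 0.27 SE, limma adjusted p = 0.0159).

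The zinc finger transcription factor gene EGR1 ranged from 2.61 to 128 CPM in ZG, with a median of 18.998, and from 1.33 to 14.9 CPM in H2, with a median of 3.92. It passed narrowly (log2 fold change -1.90 ± 0.47 SE, limma adjusted p = 0.0497), and the adjusted p was 0.102, 0.106 or 0.101 without the H2 library of steer 1320, 1484 or 1844. With the ZG library of steer 571 put back it was 0.412, and over the 22 alternatives it ran from 8.41e-06 to 0.9998. In steer 1100, EGR1 went up, from 2.61 CPM in ZG to 14.9 CPM in H2. CSRNP1, a nuclear protein gene of the same early response, was more clearly separated, at 2.53 to 75.5 CPM in ZG and 1.39 to 5.95 CPM in H2. Here 13 of 17 ZG libraries exceeded the highest H2 library (log2 fold change -2.14 ± 0.40 SE, limma adjusted p = 0.00545). The kinase gene PIM1 had a median of 4.58 CPM in ZG and 2.55 CPM in H2 (log2 fold change -1.01 ± 0.25 SE, limma adjusted p = 0.0464), and the adjusted p rose to 0.10004 without the H2 library of steer 419. MIDN, which encodes midnolin, a protein that carries early transcription factors to the proteasome, had medians of 11.2 and 5.13 CPM (log2 fold change -1.38 ± 0.31 SE, limma adjusted p = 0.0311). With the ZG library of steer 571 its adjusted p was 0.316, within 0.000432 to 0.9998 over the alternatives, and it was lower in H2 in 3 of the 5 steers sampled in both phases.

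BTG2, ZFP36 and ZC3H12A encode proteins that shorten the life of messenger RNAs, and were put side by side for that role after their values were seen. BTG2, which recruits the enzymes that remove poly(A) tails and slows cell division, ranged from 8.17 to 209.9 CPM in ZG with a median of 37.7, and from 1.61 to 19.8 CPM in H2 with a median of 4.74. Of the 14 H2 libraries, 10 were below the lowest ZG library, and the difference was 7.37 times (log2 fold change -2.88 ± 0.50 SE, limma adjusted p = 0.00232). ZFP36, or tristetraprolin, binds AU-rich RNAs, and its medians were 56.0 CPM in ZG and 30.5 CPM in H2 (log2 fold change -1.05 ± 0.25 SE, limma adjusted p = 0.0458). Its adjusted p was 0.107 with sample quality weights and 0.153 with the ZG library of steer 571, within 0.000438 to 0.9998 over the alternatives, and it was higher in H2 in steers 1100 and 307. ZC3H12A, the ribonuclease regnase-1, had medians of 3.95 and 1.85 CPM (log2 fold change -1.16 ± 0.30 SE, limma adjusted p = 0.0735). Its call was the least steady of the named genes, since the adjusted p ranged from 0.0321 to 0.166 as each of the 31 libraries was left out in turn and was 0.1 or more in 16 of those fits, and edgeR gave 0.119. With the ZG library of steer 571 put back, the limma adjusted p of ZC3H12A was 0.314.

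**Figure D2:**
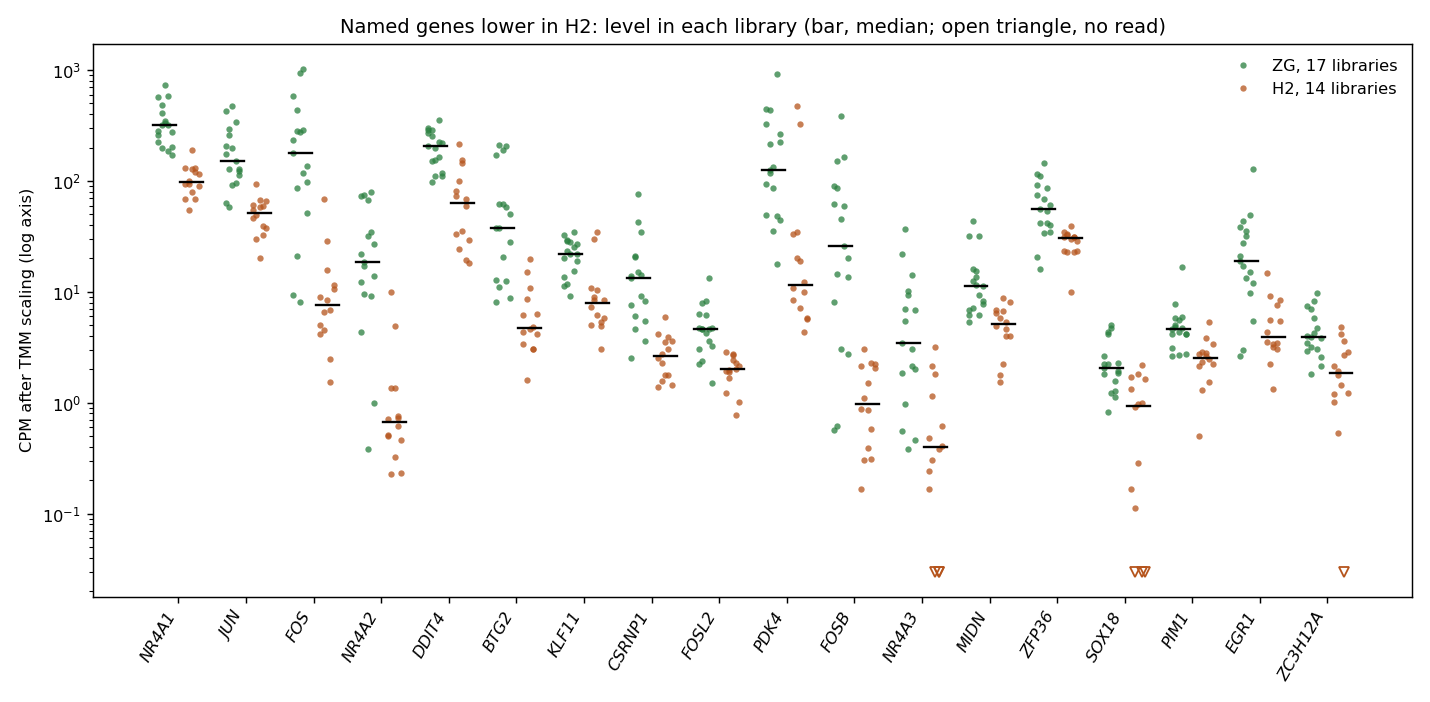
Level in CPM (log axis) of the 18 named genes that were lower in H2, in each of 17 ZG (green) and 14 H2 (orange) libraries, with the median as a bar and libraries without a read as open triangles. NR4A1 shows the least overlap between the groups, FOSB and NR4A2 the widest ranges within ZG as highest over lowest (683 and 207 times), and PDK4 has 2 H2 libraries above the ZG median.

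Of 40 genes listed as immediate-early, 18 could be matched to the files and all 18 were tested. Of these, 14 were lower, none was higher, and the median log2 fold change was -1.66 against -0.0096 over all genes tested. Of all genes tested 0.627% were lower, and of the 105 with a symbol 17.1%. The study had itself placed 14 of the 18 on its list for the interaction of diet and breed, called on these animals. This count is thus not independent evidence of the direction. The 4 that did not pass were JUNB, CCN1, CEBPD and NFKBIA. JUNB, an AP-1 member, had medians of 12.0 CPM in ZG and 4.31 CPM in H2 but a wide error (log2 fold change -1.62 ± 0.52 SE, limma adjusted p = 0.215), and edgeR gave an adjusted p of 0.0357 within a range of 0.000562 to 0.9999 over the alternatives. CCN1, a secreted matrix protein gene, lay just outside the threshold with medians of 44.8 and 22.5 CPM (log2 fold change -1.02 ± 0.28 SE, limma adjusted p = 0.101), and the adjusted p ran from 0.0391 without the H2 library of steer 307 to 0.189 as single libraries were left out. CEBPD, a transcription factor of stress and fat cell formation, had a log2 fold change of -0.93 ± 0.29 SE (limma adjusted p = 0.188). NFKBIA, the inhibitor that NF-kB induces, was the single one with a positive value, 0.21 ± 0.17 SE (limma adjusted p = 0.942).

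Summed over the 18 immediate-early genes, the level was 386 to 3276 CPM in ZG, with a median of 890, and 170 to 425 CPM in H2, with a median of 268. The highest values came from a few steers in ZG and were spread over more steers in H2. Of the 18 named lower genes, 8 were highest in the ZG library of steer 1879 and 5 in that of steer 1484, and 5 had their highest H2 value in steer 1316. On the mean of log2(CPM + 0.5) over those genes, 16 of 17 ZG libraries exceeded the highest H2 library and 13 of 14 H2 libraries were below the lowest ZG library, but the genes were chosen for that difference. No separate time from capture to biopsy was given in the sources used here, and its part was not tested. In biopsies, fewer cells that express a gene and less RNA per cell cannot be told apart.

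Of the growth regulators tested, DDIT4 and KLF11 were lower. DDIT4, or REDD1, which restrains the growth kinase mTORC1, had a median of 207 CPM in ZG (96.9 to 354) and of 63.4 CPM in H2 (18.3 to 216). A total of 10 H2 libraries were below the lowest ZG library, while that of steer 1316 was above the ZG median. The fold was 3.52 (log2 fold change -1.81 ± 0.30 SE, limma adjusted p = 0.00129). KLF11, a Kruppel-like transcription factor, fell from a ZG median of 21.8 CPM (9.21 to 34.4) to an H2 median of 7.85 CPM (3.06 to 34.8). Although 10 H2 libraries were below every ZG library, that of steer 443 was above them all (log2 fold change -1.31 ± 0.24 SE, limma adjusted p = 0.00507).

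The growth and atrophy list had 6 of 37 genes matched and tested, of which these 2 were lower and none higher, with a median log2 fold change of -0.75, where 0.627% of all genes tested and 17.1% of those with a symbol were lower. CISH, which damps growth hormone signalling, did not pass, with medians of 9.47 CPM in ZG and 3.104 CPM in H2 (log2 fold change -1.41 ± 0.44 SE, limma adjusted p = 0.189). FOXO1, a transcription factor of muscle wasting, had medians of 2.61 and 2.03 CPM and a log2 fold change of -0.19 with a 95% interval from -0.66 to 0.28. GADD45A, a stress gene of atrophying muscle, had a log2 fold change of -0.14 (95% interval -0.88 to 0.59). ARRDC2 was the single one of the 6 with a positive value, 0.15 (95% interval -0.41 to 0.72).

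PDK4 was the gene of fuel choice that was lower. It ranged from 17.8 to 929 CPM in ZG, with a median of 126, and from 4.33 to 471 CPM in H2, with a median of 11.5. Of the 14 H2 libraries, 8 were below the lowest ZG library, and 2 were above the ZG median, with 471 CPM in steer 1316 and 328 CPM in steer 443. The log2 fold change was -2.82 ± 0.60 SE (limma adjusted p = 0.0183), about 7.06 times. The call rested on the method, as edgeR without the block gave a log2 fold change of -1.64 (adjusted p = 0.515) and DESeq2 one of -1.58 (adjusted p = 0.318), within a range of adjusted p from 0.000653 to 0.9994 over the 22 alternatives. Leaving out any single library kept the limma adjusted p at 0.0422 or less.

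Of 38 genes listed for fatty acid oxidation, 4 were matched and tested, and PDK4 alone passed, with a median log2 fold change of -0.23 over the 4, where 0.627% of all genes tested and 17.1% of those with a symbol were lower. PLIN5, the coat protein that holds lipid droplets against mitochondria, lay just outside the threshold, with medians of 16.7 CPM in ZG and 10.0 CPM in H2 (log2 fold change -0.72 ± 0.20 SE, limma adjusted p = 0.101), and the adjusted p ran from 0.0552 without the H2 library of steer 307 to 0.195 as single libraries were left out. It was lower in H2 in all 5 steers sampled in both phases. The fatty acid transporter gene SLC27A6 had medians of 1.64 and 2.61 CPM (log2 fold change 0.64 ± 0.46 SE, limma adjusted p = 0.883), and ACSM1, an acyl-CoA synthetase gene, of 2.10 and 2.46 CPM (log2 fold change 0.26 ± 0.34 SE, limma adjusted p = 0.992).

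**Figure D3:**
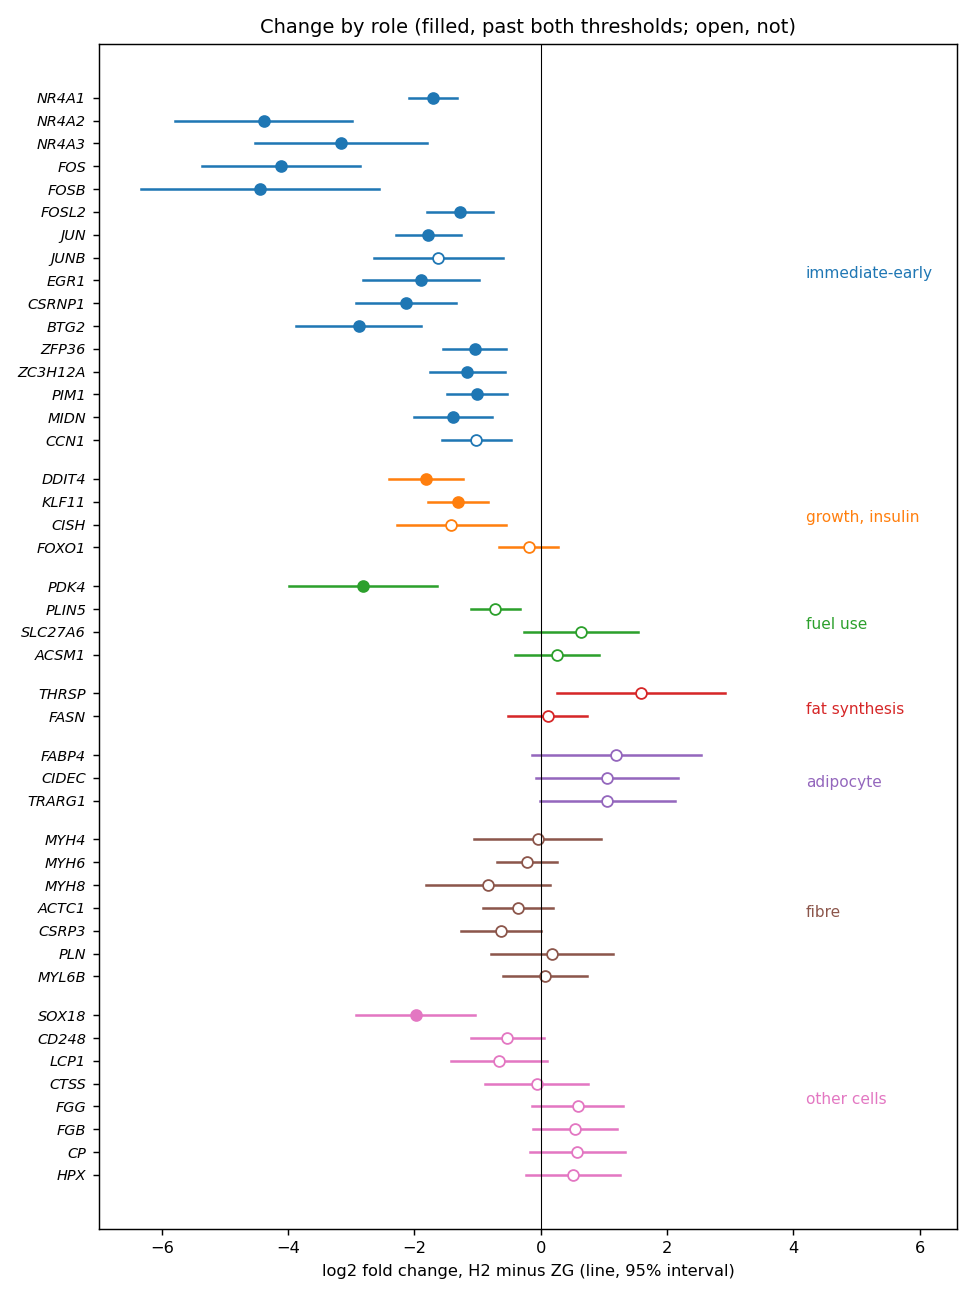
Log2 fold change (H2 minus ZG, horizontal axis) with its 95% interval (normal quantile of the SE) for 44 named genes grouped by role, filled where both thresholds were passed. Of the 16 immediate-early genes drawn, which leave out CEBPD and NFKBIA, all but JUNB and CCN1, and also DDIT4, KLF11, PDK4 and SOX18 lie left of 0 with filled points, and the fat synthesis and adipocyte genes lie right of 0 with open points.

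Genes of fat synthesis had higher values in H2, but none passed. THRSP, a nuclear protein that promotes fatty acid synthesis, had a median of 0.557 CPM in ZG (0 to 34.4) and of 3.31 CPM in H2 (0 to 54.9). As many as 13 of 14 H2 libraries were above the ZG median, yet the groups overlapped over most of their range (log2 fold change 1.59 ± 0.68 SE, unadjusted p = 0.0252, limma adjusted p = 0.489). FASN, the fatty acid synthase itself, had medians of 38.3 and 44.4 CPM and a log2 fold change of 0.11 (95% interval -0.52 to 0.73), which was -0.096 without the H2 library of steer 1840. ELOVL6, which elongates the product of FASN, was too low to be tested, with medians of 0.442 CPM in ZG and 1.297 CPM in H2.

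Adipocyte genes had the same sign. FABP4, the fatty acid carrier of fat cells, had medians of 1.45 CPM in ZG and 3.35 CPM in H2 (log2 fold change 1.199 ± 0.68 SE, limma adjusted p = 0.754). CIDEC, a lipid droplet protein gene, had medians of 2.02 and 3.79 CPM (log2 fold change 1.05 ± 0.58 SE, limma adjusted p = 0.726). TRARG1, which sorts the insulin-responsive glucose carrier, had medians of 0.940 and 2.47 CPM (log2 fold change 1.05 ± 0.54 SE, limma adjusted p = 0.682). The 3 fat cell markers, FABP4, CIDEC and TRARG1, summed to 0.197 to 55.0 CPM in ZG and 1.23 to 128 CPM in H2. A few animals set the top of both ranges, since steer 437 had the highest ZG value and steer 1840 the highest H2 value of all 4 genes THRSP, FABP4, CIDEC and TRARG1. In the 5 steers sampled in both phases, the fit with the steer as a fixed effect gave negative values for FABP4 (-0.69), CIDEC (-0.62) and TRARG1 (-0.34), and -0.0045 for THRSP. ANGPTL8, a secreted regulator of lipoprotein lipase that was also too low for the test, was above the highest ZG library in 7 of 14 H2 libraries, with medians of 0.355 and 1.08 CPM.

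Genes of the contractile apparatus, and other muscle genes given with them here, did not pass in either direction. MYH8, the perinatal myosin gene, had medians of 32.1 CPM in ZG and 21.04 CPM in H2 (log2 fold change -0.83 ± 0.50 SE, limma adjusted p = 0.799). CSRP3, the muscle LIM protein gene, was at 167 and 102 CPM (log2 fold change -0.63 ± 0.32 SE, limma adjusted p = 0.680), and ACTC1, the cardiac actin gene, at 10.5 and 5.53 CPM (log2 fold change -0.36 ± 0.28 SE, limma adjusted p = 0.923). MYH6, PLN, MYL6B and the fast myosin gene MYH4 had log2 fold changes between -0.21 and 0.18. The error on MYH4 was large (95% interval -1.06 to 0.96), and edgeR gave it a log2 fold change of 1.21 (adjusted p within 0.646 to 0.9999 over the alternatives). The acetylcholine receptor subunit gene CHRND had a log2 fold change of -0.31 (95% interval -1.16 to 0.53).

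The mitochondrially encoded MT-CO3 and MT-ND3 and the nuclear respiratory chain gene NDUFA3 had log2 fold changes of 0.04, 0.08 and 0.26, each within 1 SE of 0. Ribosomal protein genes RPL38 and RPL12 were at -0.15 ± 0.27 SE and -0.03 ± 0.84 SE. PCK2, a target of the amino acid response, was at 0.52 ± 0.36 SE, the antioxidant gene GSTM3 at 0.56 ± 0.35 SE, and the interferon-induced MX1 and IDO1 at 0.22 ± 0.35 SE and 0.41 ± 0.42 SE. For matrix genes, CCN2 was at -0.42 ± 0.29 SE and the fibroblast marker CD248 at -0.53 ± 0.30 SE. None of the genes in this group passed the test. Lists of glycolysis, protein folding, cholesterol synthesis and clock genes had no member that could be matched.

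SOX18, a transcription factor of blood vessel endothelium and the single matched endothelial marker of 10, was lower in H2, at 0.827 to 4.99 CPM in ZG and 0 to 2.17 CPM in H2. Medians were 2.07 and 0.941 CPM, and 3 H2 libraries held no read (fitted log2 fold change -1.98 ± 0.48 SE, limma adjusted p = 0.0458). With edgeR the adjusted p was 0.184. It was 0.112 with the libraries under 1000000 counts and 0.454 with the ZG library of steer 571, within 0.0325 to 0.9999 over the alternatives. Leukocyte markers LCP1 (log2 fold change -0.66 ± 0.39 SE) and CTSS (-0.07 ± 0.42 SE) did not pass. The summed level of the 12 matched leukocyte markers was 4.99 to 93.4 CPM in ZG and 5.30 to 70.2 CPM in H2. Of the liver genes, 10 were tested and all had positive values, with a median log2 fold change of 0.43, and none passed. Among them FGG was at 0.58 ± 0.36 SE, FGB at 0.54 ± 0.34 SE, CP at 0.58 ± 0.38 SE and HPX at 0.52 ± 0.38 SE. Without the 2 libraries whose liver genes summed to over 300 CPM, a limit set after seeing the data, 40 genes were lower in H2, of which 39 were among the 62.

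The 44 lower genes without a symbol differed by a median of 1.87 times. The most marked of them, ENSBTAG00000047752, ranged from 10.0 to 556 CPM in ZG, with a median of 77.3, and from 1.44 to 18.4 CPM in H2, with a median of 3.93. Only 1 of 14 H2 libraries reached the lowest ZG value (log2 fold change -4.54 ± 0.54 SE, limma adjusted p = 6.32e-06). ENSBTAG00000023179 had medians of 64.6 and 28.4 CPM (log2 fold change -1.10 ± 0.17 SE, limma adjusted p = 0.000817). Among the 4 higher genes, ENSBTAG00000008294 had medians of 6.71 CPM in ZG and 13.2 CPM in H2, and 10 of 14 H2 libraries were above the highest ZG library (log2 fold change 1.06 ± 0.23 SE, limma adjusted p = 0.0226). Its limma adjusted p was 0.1045 with the ZG library of steer 571 put back and 0.156 in the steers with 1 library. Over the alternatives, the adjusted p ran from 0.000441 to 0.9998. ENSBTAG00000008296 had medians of 8.28 and 12.2 CPM, with 11 H2 libraries above every ZG library (log2 fold change 0.60 ± 0.13 SE, limma adjusted p = 0.0159). It lay just inside the fold limit, and its fold fell under that limit in 7 of the 31 fits that left out 1 library. The number of higher genes ranged from 1 to 7 over those fits, with 1 without the H2 library of steer 1100, 2 without the H2 library of steer 1492 or the ZG library of steer 1484, 427 or 788, and 7 without the H2 library of steer 1840.

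In the 5 steers sampled in both phases, the animal is its own comparison. Of the 62 lower genes, 57 were lower in H2 in steer 1100, 59 in 1484, 56 in 1492, 57 in 307 and 50 in 310, although these libraries took part in choosing the genes. NR4A1 went from 284 to 69.2 CPM in steer 1100, from 739 to 120 CPM in 1484, from 186 to 115 CPM in 1492, from 277 to 128 CPM in 307 and from 568 to 68.5 CPM in 310. FOS went from 9.33 to 4.996 CPM in steer 1100, from 938 to 2.46 CPM in 1484, from 118 to 10.5 CPM in 1492, from 135 to 15.8 CPM in 307 and from 586 to 1.54 CPM in 310. The size of the FOS change thus ran from 1.87 times in steer 1100 to 382 times in steer 1484. PDK4 went from 327 to 10.9 CPM in steer 1100, from 87.1 to 4.33 CPM in 1484, from 17.8 to 5.68 CPM in 1492, from 226 to 7.12 CPM in 307 and from 443 to 9.99 CPM in 310. DDIT4 and KLF11 were lower in H2 in all 5 steers, DDIT4 by 1.88 to 15.1 times and KLF11 by 2.30 to 4.38 times. THRSP was lower in H2 in 3 of the 5 and higher in 2. In the fit on these 10 libraries alone, with the replicate block of the steer as a fixed effect (edgeR), 1 gene was lower and none was higher, with 186 lower and 152 higher at an unadjusted p under 0.05.

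**Figure D4:**
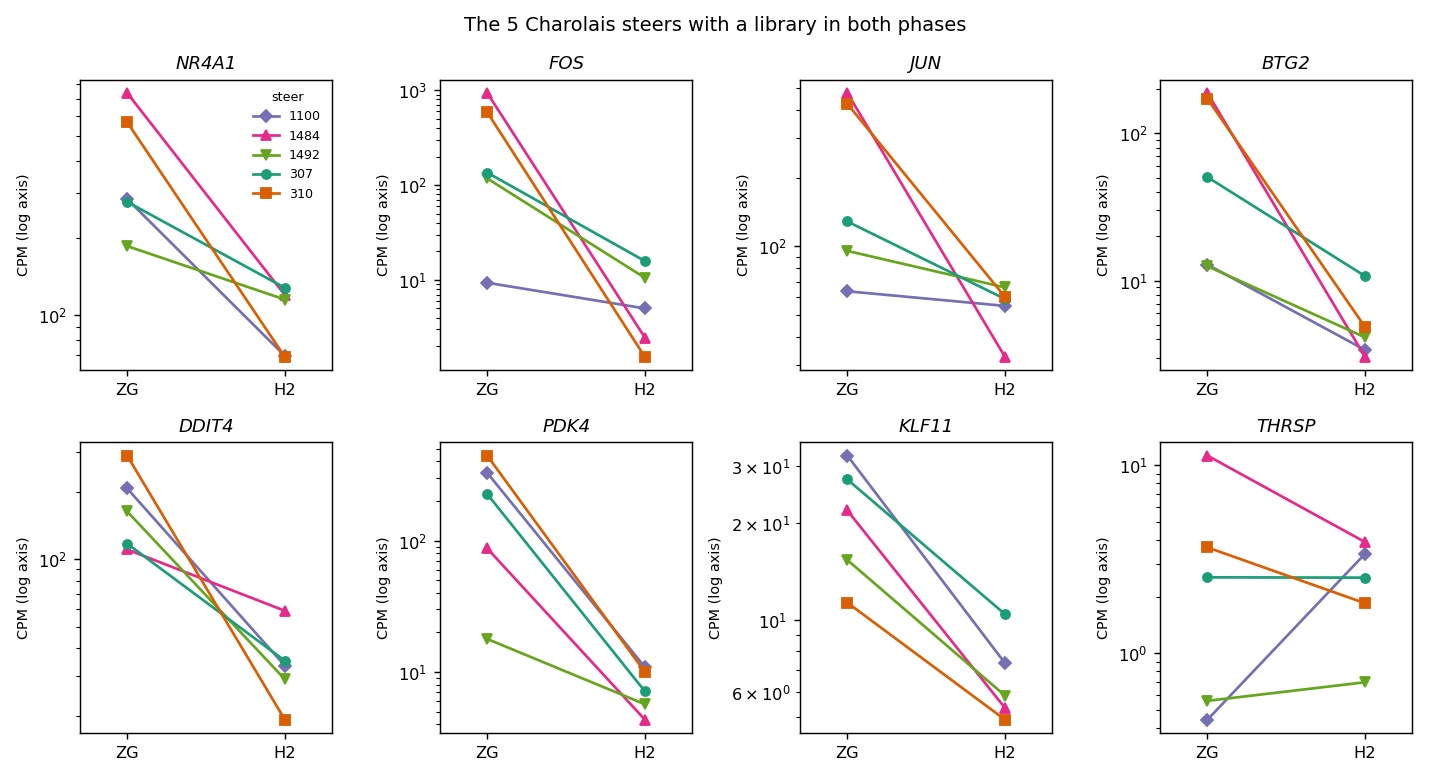
Level in CPM (log axis, different range in each panel) in ZG and H2 of 8 genes in the 5 CH steers with a library in both phases, 1 line for each steer. NR4A1, FOS, JUN, BTG2, DDIT4, PDK4 and KLF11 fall in all 5 steers, while THRSP falls in 3 and rises in 2.

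The same concentrate had been fed in the first phase, and the 18 CH libraries of H1 show the level of each gene there. They came from younger and lighter animals, only some of which were sampled again in ZG or H2. These levels are given without a test. For all 18 named lower genes, the H1 median lay between the ZG and H2 medians. The genes were chosen for their difference between ZG and H2, so this place of H1 is not independent evidence. NR4A1 had a median of 152 CPM in H1 (63.9 to 522), against 321 in ZG and 96.9 in H2. FOS was at 30.1 CPM in H1 (2.73 to 174), DDIT4 at 140 CPM (49.0 to 231) and PDK4 at 56.9 CPM (13.8 to 435). On a log scale, the H1 median was nearer to H2 than to ZG for 12 of the 18 genes. For the 44 lower genes without a symbol the balance was the other way, with 16 nearer to H2 and 28 nearer to ZG. KLF11 at 9.85 CPM in H1 was close to its H2 level of 7.85, whereas PDK4 was 2.22 times lower in H1 than in ZG and 4.93 times higher than in H2. Of the 44 lower genes without a symbol, 33 had an H1 median between the other two, 9 above both and 2 below both.

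No gene passed the test for a difference between diets that depended on RFI class in CH steers (0 of 9885 tested, 0%, limma adjusted p under 0.1). At an unadjusted p under 0.05 there were 48 genes, and edgeR called 0 with 56 at that unadjusted p. With 7 to 9 libraries in each class and phase, the test cannot show that the changes were equal. The difference for FOS, for example, was 0.78 ± 1.32 SE. Median NR4A1 went from 284 to 99.7 CPM in L-RFI and from 328 to 94.1 CPM in H-RFI steers. DDIT4 went from 253 to 29.1 CPM in L-RFI and from 177 to 81.7 CPM in H-RFI steers. The difference between the 2 changes was -1.49 on the log2 scale, L-RFI minus H-RFI (unadjusted p = 0.0121, limma adjusted p = 0.9998). PDK4 went from 126 to 9.99 CPM in L-RFI and from 110 to 18.8 CPM in H-RFI steers. FABP4 medians were higher in H-RFI steers in both phases, 3.67 against 1.09 CPM in ZG and 9.01 against 1.87 CPM in H2, with no test of that difference here.

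The HF steers passed through the same phases, and 35 of their ZG and H2 libraries allowed the change to be set beside that of CH. No gene passed the test for a change that differed between the breeds (0 of 10074 tested, 0%, limma adjusted p under 0.1). At an unadjusted p under 0.05 there were 487 genes, and edgeR called 0 with 484 at that unadjusted p. All 62 genes that were lower in CH had negative values in HF, and 41 of them passed both thresholds there, where 3.39% of genes tested were lower. The share of negative values over all genes tested in HF was not counted. Of the genes higher in CH, ENSBTAG00000008296 had log2 changes of 0.60 in CH and 0.07 in HF. The difference, HF minus CH, was -0.53 ± 0.18 SE (unadjusted p = 0.00473, limma adjusted p = 0.795). ENSBTAG00000008294 had 1.05 in CH and 0.33 in HF, a difference of -0.72 ± 0.34 SE (limma adjusted p = 0.893). In that joint fit, NR4A1 changed by -1.71 in CH and -1.21 in HF on the log2 scale, with a difference, HF minus CH, of 0.50 ± 0.36 SE. FOS changed by -4.16 in CH and -2.33 in HF, a difference of 1.84 ± 0.92 SE (unadjusted p = 0.0497, limma adjusted p = 0.893). EGR1 had -1.74 in CH, where it did not pass in this fit (limma adjusted p = 0.104), and -0.17 in HF. The difference was 1.57 ± 0.72 SE (limma adjusted p = 0.893). DDIT4 had -1.85 in CH and -1.61 in HF, with a difference of 0.24 ± 0.44 SE. Both FABP4 and THRSP had higher medians in HF than in CH in each phase, with THRSP at 13.7 CPM in HF H2 and 3.31 CPM in CH H2, levels for which no test was made here.

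**Figure D5:**
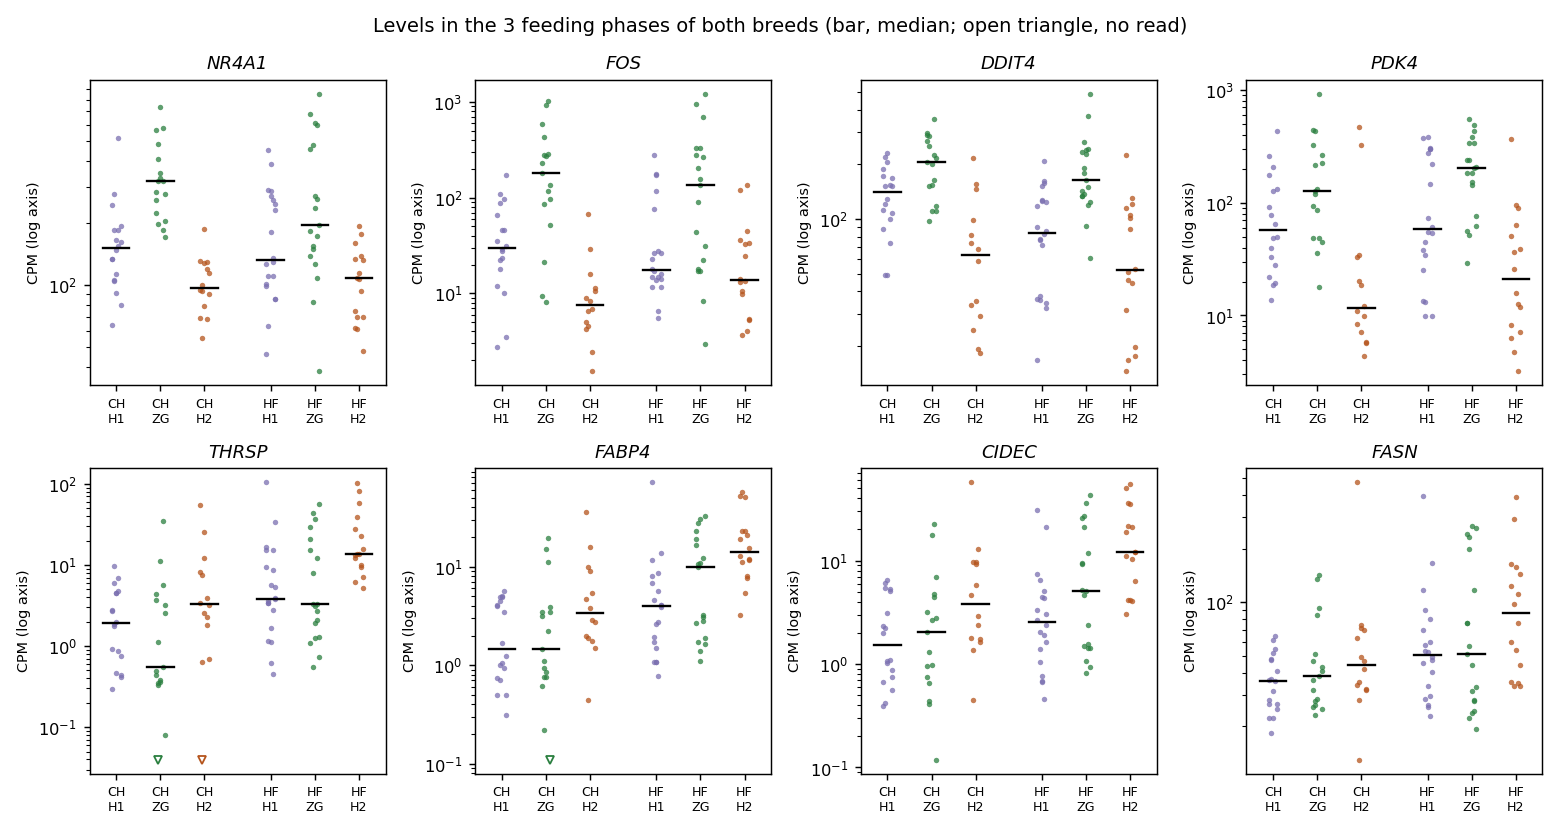
Level in CPM (log axis) of 8 genes in every library of the 3 phases (H1, ZG, H2) in CH and HF steers, with medians as bars and libraries without a read as open triangles. NR4A1, FOS, DDIT4 and PDK4 have their highest medians in ZG and their lowest in H2 in both breeds, and THRSP, FABP4, CIDEC and FASN have their highest medians in H2.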

How the data were processed

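Total RNA from muscle biopsies was made into stranded mRNA libraries and sequenced as single-end reads by the authors. The deposited values are counts of reads per gene from STAR 2.5.1, with FastQC 0.11.5 before it. The submitters' notes also name HTSeq, and the sources differ on the genome build, so no coordinates are given. The reverse-strand column was used, since it held at least 98.4% (median 99.0%) of the gene counts of the 2 stranded columns, and rows that name no gene were removed. Genes with at least 1 CPM in 50% of the 31 libraries were tested with limma 3.58.1 (voom, TMM factors from edgeR 4.0.16, R 4.3.3), with RFI class as covariate and the steer as a random block (consensus correlation 0.112). The same steer number in 2 titles marks the same animal, which is where the pairing comes from. Calls needed a Benjamini-Hochberg adjusted p under 0.1 and a fold above 1.5. Interactions with RFI class and breed were fitted the same way, and depth was compared by 100000 permutations. Alternatives included edgeR's quasi-likelihood test and DESeq2 1.42.0. The fits were tested on simulated data. Libraries under 1000000 counts (3) and the ZG library of steer 571 were left out.

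Members, gene lists and tests were chosen with earlier results of these data known. Symbols were taken from the study's supplementary list, which named 151 genes in the files. The genes named were the 12 with the smallest p in each direction among named called genes, the 5 with the largest folds in each direction at 5 CPM or more, the 4 members of each list with the smallest p and lipid and muscle genes that the study names. For genes without a symbol, at most 2 in each direction were taken. MIDN, ZFP36, PIM1 and ZC3H12A were added so that all 18 named genes past the thresholds are given. These 4 and JUNB, CCN1, CEBPD, NFKBIA, GADD45A, ARRDC2 and ALB fall outside the rule and were chosen after their values were seen.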

Additional observations from a re-analysis of the deposited data

How the results depend on the processing

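The counts of 62 lower and 4 higher genes were recomputed under 22 other settings and with each of the 31 libraries left out. With the steer block removed, limma voom called 57 lower and 3 higher genes, and edgeR 54 and 4. The fit of the 5 steers with both libraries, with the replicate block as a fixed effect, called 1 lower and 0 higher, and that of the steers with 1 library 9 and 0. Counts were 1 and 0 in L-RFI and 2 and 0 in H-RFI steers alone, fits with fewer samples. DESeq2 called 90 lower and 19 higher, sample quality weights 135 and 37, and log10 gene counts as covariate 97 and 18. No filter on low counts gave 8 higher genes, no fold limit 10, an adjusted p under 0.05 gave 2, and inclusion of libraries under 1000000 counts gave 2. With steer 571's ZG library 23 lower and 2 higher genes were called, all 23 among the 62. Of alternatives chosen after seeing the data, leaving out libraries under 5000000 counts gave 7 higher genes, and leaving out those with liver markers over 300 CPM gave 40 lower. Leaving out single libraries gave 45 to 74 lower and 1 to 7 higher genes. The cause of these shifts was not tested. The 18 named lower genes were negative under every one of these settings. Sign turned, as a log2 fold change, in genes that had not passed. In the fit of the 5 steers with both libraries and the replicate block, the values were ACSM1 -0.72, CIDEC -0.62, CP -0.43, FABP4 -0.69, FASN -0.33, FGB -0.38, FGG -0.28, GSTM3 -0.38, HPX -0.62, IDO1 -0.35, MT-CO3 -0.033, MX1 -0.28, MYH6 0.56, MYL6B -0.15, PCK2 -0.36, PLN -0.94, RPL12 0.20, RPL38 0.0075, SLC27A6 -0.47, THRSP -0.0045 and TRARG1 -0.34. With steer 571's ZG library, the values were ACSM1 -0.30, ACTC1 0.076, CP -0.026, FGB -0.065, FGG -0.059, HPX -0.097, MYH4 0.22, MYH6 0.21 and RPL12 0.11. In L-RFI steers alone, the values were CCN2 0.25, IDO1 -0.15, MT-CO3 -0.23, MT-ND3 -0.37, MX1 -0.40 and NDUFA3 -0.14. In H-RFI steers alone, the values were CTSS 0.15, MYH4 0.57, RPL12 0.86 and RPL38 0.30. With sample quality weights, the values were FOXO1 0.021, MYH4 0.54, MYL6B -0.18 and RPL12 0.071. With log10 gene counts as covariate, the values were CTSS 0.083, FASN -0.081, MT-CO3 -0.16, MT-ND3 -0.18 and RPL12 0.015. Without libraries under 5000000 counts, the values were MT-CO3 -0.045, MT-ND3 -0.032, MYH4 0.068 and RPL12 0.20. With libraries under 1000000 counts, the values were FASN -0.0016, MYL6B -0.034 and RPL12 0.060. In steers with 1 library, the values were CTSS 0.41, FOXO1 0.21 and MYH4 0.21. With DESeq2, the values were CTSS 0.024, FOXO1 0.019 and MYH4 0.70. With edgeR on all libraries, the value was MYH4 1.21. With the 3 phases in 1 fit, the values were CTSS 0.0025 and RPL12 0.066. Without the liver-rich libraries, the value was MYH4 0.030. Without steer 1316's H2 library, the value was RPL12 0.066. As each library was left out in turn, the genes whose sign turned ranged over CTSS -0.23 to 0.12, FASN -0.10 to 0.23, MT-CO3 -0.11 to 0.16, MT-ND3 -0.14 to 0.20, MYH4 -0.43 to 0.20, MYL6B -0.11 to 0.21 and RPL12 -0.41 to 0.42. Depth limits the lowest genes: in the shallowest library, a count of 3 is 1.36 CPM before TMM scaling. Diet, age, weight and phase cannot be told apart in this design, and gene symbols were known for few genes. That floor covers counting error only, while the 95% intervals on log2 fold changes rest on the spread between libraries. Those intervals use a normal quantile of the SE, whereas the limma p-values come from a moderated t. The intervals are thus somewhat too narrow for those tests.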
